A study of Mus musculus with 13 samples.

Results

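The genes described here are 10 members of the TGF-β and activin signaling pathway in mouse parametrial white adipose tissue (pmWAT): the ligand genes *Tgfb1*, *Tgfb2*, *Tgfb3*, *Inhba* and *Inhbb*, the receptor genes *Tgfbr1* and *Tgfbr2*, the signal transducers *Smad3* and *Smad7*, and the activin-binding inhibitor *Fst*. They were chosen by gene symbol, and all 10 were found among the 33618 genes of the count table. All 10 were also among the 16753 genes that had enough counts to be compared between genotypes.

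The study asked how loss of A-type lamins in adipocytes of adult mice changes fat tissue, and RNA-Seq of whole pmWAT was the measurement used here. The 7 *Lmna fl/fl* control mice carried floxed *Lmna* alleles, with loxP sites on either side of a pair of exons, and no Cre. The 6 *Lmna* iADKO mice carried the same floxed alleles and 1 copy of *Adipoq*-Cre ERT2, a tamoxifen-activated Cre driven by the adiponectin promoter, which is active in adipocytes. Mice of both genotypes received tamoxifen at 50 mg/kg for 5 days at 12 to 14 weeks of age, were kept at 22 °C, and gave tissue 2 weeks posttamoxifen. They were females, since pmWAT is the fat depot beside the uterus. Because the controls lacked the Cre, the presence of Cre and the loss of *Lmna* cannot be told apart in these groups. The tissue was sequenced whole, so each value mixes adipocytes with the vascular, stromal, mesothelial and immune cells around them.

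TGF-β and activins are secreted dimers that signal through pairs of type I and type II receptor kinases, which phosphorylate the transcription factors SMAD2 and SMAD3. TGF-β is stored in the matrix as a latent complex and is known in fat for blocking the formation of adipocytes and driving fibrosis. Activin B, the dimer of the *Inhbb* product, is made by adipocytes and can act on them through the type I receptor ALK7, and follistatin binds activins and keeps them from their receptors.

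Between 18854223 and 19776491 counts per mouse fell on genes. Levels are given as CPM, the counts of a gene scaled so that every library has the same total after TMM normalization between libraries. Differences are log2 fold changes of iADKO over fl/fl from edgeR's quasi-likelihood test, with their standard errors (SE) and with p-values adjusted over all 16753 genes by the Benjamini-Hochberg method, and a gene is said to have passed at an adjusted p under 0.05. *Lmna* itself (chr3:88387454-88417299 of GRCm39, minus strand) ran from 74.7 to 98.5 CPM with a median of 83.5 in the libraries labelled fl/fl, and from 80.1 to 109 with a median of 96.8 in those labelled iADKO. Its log2 fold change was 0.19 (SE 0.079, adjusted p = 0.0785), and it passed as higher without fl/fl replicate 1 (0.23, adjusted p = 0.0411) or iADKO replicate 6 (0.24, adjusted p = 0.0208). The *Lmna* level was thus not lower under the iADKO label, the counts cover the whole gene and all cells of the tissue, and every direction below rests on the labels of the libraries.

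A few mice stood apart from others of their label. Fl/fl replicate 5 had the lowest summed level of 8 adipocyte markers in its group (27370 CPM; the other fl/fl mice ran from 33900 to 43080) and a summed level of 9 macrophage markers of 5327 CPM, above the 1826 to 3612 CPM of the other controls. It also had the highest skeletal muscle sum of all 13 mice (354 CPM), the lowest endothelial (819.9 CPM) and smooth muscle and pericyte (610.6 CPM) sums, and the highest mesothelial sum of the controls (787.1 CPM). Among the libraries labelled iADKO, replicate 6 was the reverse, with the highest adipocyte sum (27900 CPM against 16130 to 20320) and the lowest macrophage sum (3127 CPM against 4543 to 5398). Fl/fl replicate 7 stood apart in *Inhba*, described with that gene. Where leaving out 1 of these mice changed whether a pathway gene named below passed, its value without that mouse is given. For *Ltbp3* only the range over such fits is given.

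Of the 10 pathway genes, 1 was higher in iADKO by label and 1 lower, and 8 did not pass. The 2 that passed were the ligand genes *Tgfb1*, higher, and *Inhbb*, lower. Over all genes tested, 5104 (30.5%) passed, 2367 higher (14.1%) and 2737 lower (16.3%), beside 20% of the 10. Without fl/fl replicate 5 the order of those shares turned, with 5 of the 10 beside 6604 of 16638 genes tested. For 1113 genes (6.64%) the values of the 2 genotypes did not overlap at all, and none of the 10 was among them. Log2 fold changes were above 0 for 8 of the 10 genes, with a median of 0.14 beside 0.03 over all genes.

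**Figure D1:**
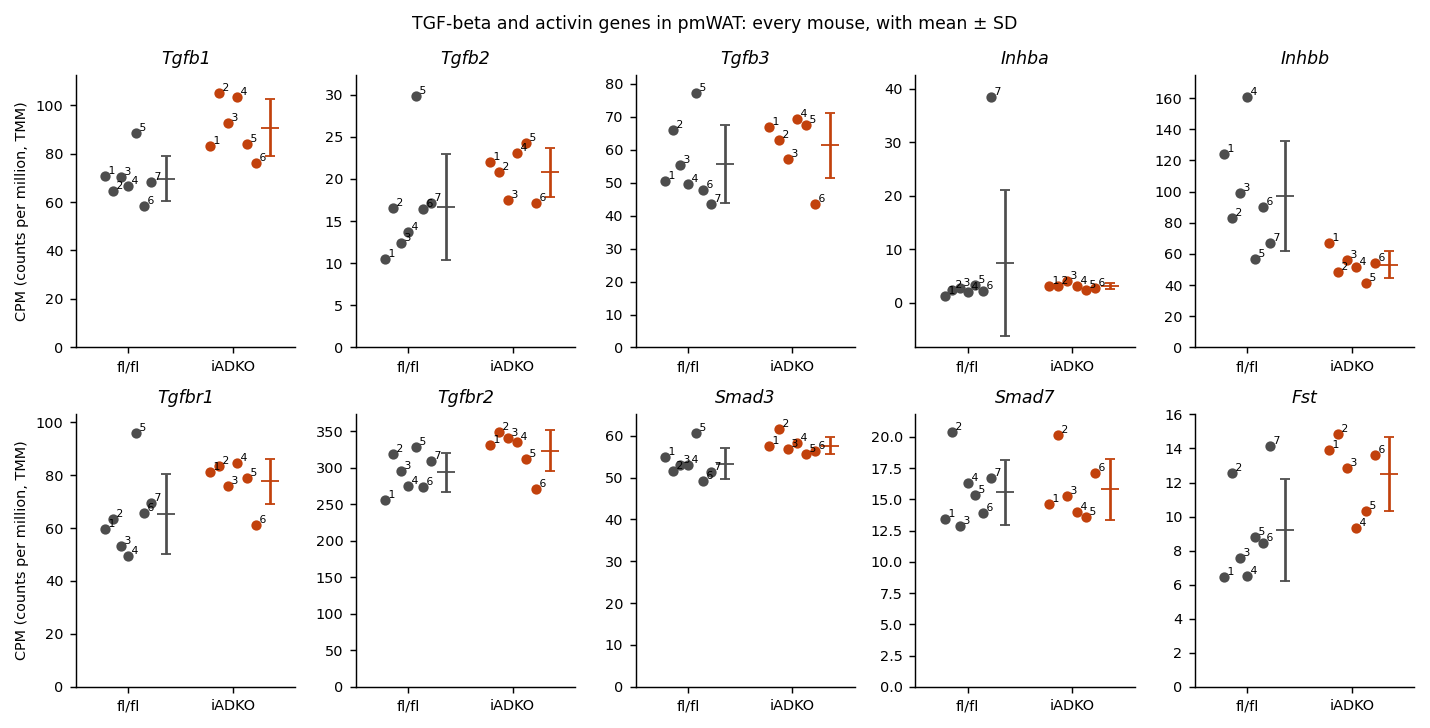
CPM of the 10 genes in every mouse, numbered by replicate, with the mean ± SD of each group at its right (fl/fl, n = 7, grey; iADKO, n = 6, orange). *Tgfb1* sits between 76.1 and 104.9 CPM in iADKO and *Inhbb* between 41.3 and 67.3, and fl/fl replicate 7 alone holds *Inhba* at 38.4.

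*Tgfb1* encodes TGF-β1, the isoform made by most immune, endothelial and stromal cells, and lies at chr7:25386390-25404506 of GRCm39 on the plus strand. In the libraries labelled fl/fl it was at 70.9, 64.6, 70.1, 66.5, 88.6, 58.4 and 68.1 CPM in replicates 1 to 7, lowest 58.4, median 68.1 and highest 88.6. In those labelled iADKO it was at 83.1, 104.9, 92.4, 103.5, 84.0 and 76.1 CPM, lowest 76.1, median 88.2 and highest 104.9. Every iADKO mouse was above 6 of the 7 controls, and the groups met only through fl/fl replicate 5, which was above 3 iADKO mice and below the other 3. The means were 69.6 ± 9.37 CPM (SD, fl/fl) and 90.7 ± 11.7 CPM (SD, iADKO), and the log2 fold change was 0.38 (SE 0.096, adjusted p = 0.0092), or 1.30 times. Without fl/fl replicate 5 it was 0.45 (adjusted p = 7.14e-04).

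*Inhbb* encodes the βB subunit shared by activin B and inhibin B (chr1:119343193-119350021, minus strand, 2 exons). Its level in fl/fl replicates 1 to 7 was 124, 82.9, 98.9, 160.8, 56.7, 90.1 and 67.2 CPM, lowest 56.7, median 90.1 and highest 160.8. In iADKO replicates 1 to 6 it was 67.3, 48.3, 56.1, 51.7, 41.3 and 54.4 CPM, lowest 41.3, median 53.0 and highest 67.3. The controls were spread widely, whereas the iADKO mice lay close together at the low end, and 5 of the 6 were below every control. The exception, iADKO replicate 1, was above fl/fl replicates 5 and 7 only. The means were 97.3 ± 35.5 and 53.2 ± 8.68 CPM (SD, n = 7 and 6), a log2 fold change of -0.87 (SE 0.21, adjusted p = 0.00949), or 0.547 times. Leaving out fl/fl replicate 5 gave -0.96 (adjusted p = 0.00215).

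Library names carry numbers in 4 separate ranges, of which only a pair holds both genotypes, and what the numbers stand for was not given in the sources used here. Among libraries 722 to 727 (2 fl/fl, 2 iADKO) the difference in mean log2 CPM was 0.21 for *Tgfb1* and -0.85 for *Inhbb*. Among libraries 747 to 765 (3 fl/fl, 2 iADKO) it was 0.45 and -0.82, so both genes kept their direction in each range. With the range as a block in the quasi-likelihood test, 0 of the 10 genes and 1986 of all genes passed, 3 of the 10 were at an unadjusted p under 0.05 (*Tgfb1*, *Inhbb* and *Fst*), and the log2 fold changes were 0.34 for *Tgfb1* (adjusted p = 0.0788) and -0.92 for *Inhbb* (adjusted p = 0.053). DESeq2's Wald test and limma, both without that block, passed the same 2 genes as edgeR.

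The 2 called ligand genes moved in opposite directions beside opposite changes in the markers of 2 cell types. All 8 adipocyte markers were lower in iADKO, with log2 fold changes from -1.11 to -0.61 and a median of -0.88, and their summed level was 36290 ± 4906 CPM in fl/fl and 20360 ± 3998 CPM in iADKO. Their most abundant gene was *Car3*, and the adipocyte-defining *Adipoq* was at 2139 and 1276 CPM. Of 9 macrophage markers, 7 were higher and the other 2, *Lyz2* and *Itgam*, did not pass. Their median log2 fold change was 0.70, their summed level 2805 ± 1254 CPM in fl/fl and 4484 ± 742 CPM in iADKO, and *Lyz2* was the most abundant. In whole tissue, fewer cells of a type and less RNA per cell cannot be told apart, and what part these marker changes had in the values of *Tgfb1* and *Inhbb* was not tested.

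The mouse with the highest macrophage sum among the controls, fl/fl replicate 5, was also the control with the highest *Tgfb1* and the lowest *Inhbb*. Among the other controls, *Tgfb1* did not follow the macrophage sum. Fl/fl replicate 7, with a sum of 3612 CPM, had *Tgfb1* at 68.1 CPM. Fl/fl replicate 3, with the lowest sum (1826 CPM), had it at 70.1 CPM. The iADKO mouse with the lowest macrophage sum, replicate 6, had the lowest *Tgfb1* of its group (76.1 CPM) and an *Inhbb* of 54.4 CPM, in the middle of that group.

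**Figure D2:**
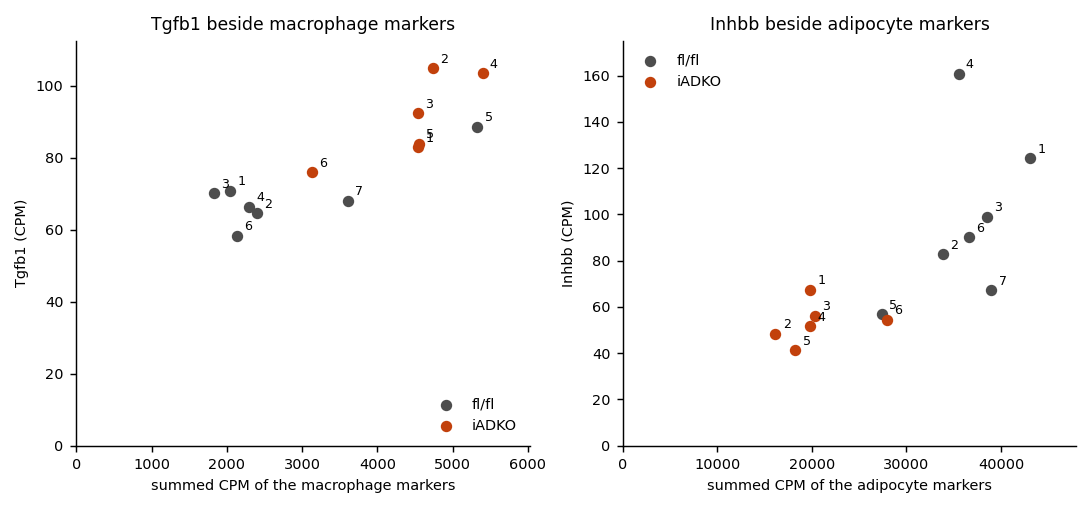
Left, *Tgfb1* (CPM) against the summed CPM of 9 macrophage markers; right, *Inhbb* (CPM) against the summed CPM of 8 adipocyte markers. Each point is 1 mouse, numbered by replicate (fl/fl grey, iADKO orange), and fl/fl replicate 5 lies among or next to the iADKO mice in both plots.

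The other 2 TGF-β isoforms did not pass. *Tgfb2* encodes an isoform with broad roles in the development of organs (chr1:186354985-186438294, minus strand). It ran from 10.5 to 29.9 CPM with a median of 16.4 in fl/fl and from 17.1 to 24.2 with a median of 21.4 in iADKO. The widest values on both sides were in controls, and fl/fl replicate 5, at 29.9 CPM, was the highest of all 13 mice while the next control was at 17.1. The log2 fold change was 0.32 (SE 0.20, adjusted p = 0.24), and without that mouse it was 0.53 (adjusted p = 0.00507). Within library ranges the difference in log2 CPM was -0.03 among 722 to 727, which include that mouse, and 0.72 among 747 to 765.

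*Tgfb3* encodes the third isoform (chr12:86102756-86126301, minus strand) and ran from 43.6 to 77.2 CPM, median 50.6, in fl/fl and from 43.4 to 69.5, median 65.0, in iADKO. Both the highest mouse, fl/fl replicate 5, and the lowest, iADKO replicate 6, were on the side away from the rest of their group, and the groups overlapped over nearly their whole range. The log2 fold change was 0.14 (SE 0.14, adjusted p = 0.464). It was 0.24 (adjusted p = 0.125) without fl/fl replicate 5, 0.22 (adjusted p = 0.187) without iADKO replicate 6 and 0.09 (adjusted p = 0.655) without fl/fl replicate 7. The difference in log2 CPM was -0.17 among libraries 722 to 727 and 0.19 among 747 to 765, and with the range as a block the log2 fold change was 0.02 (adjusted p = 0.936). Its exons overlap those of *Ttll5* on the opposite strand, at 18.9 ± 2.60 CPM in fl/fl and 14.7 ± 0.627 CPM in iADKO. The libraries mark the strand, but whether the counting used it was not given in the sources used here, so reads from the shared stretch may have been assigned to either gene.

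*Inhba* encodes the βA subunit of activin A, a product of fibroblasts and macrophages, and lies at chr13:16186373-16206206 on the plus strand. It was low in 12 of the 13 mice, at 1.38, 2.42, 2.83, 2.09, 3.44 and 2.21 CPM in fl/fl replicates 1 to 6 and at 2.48 to 4.04 CPM in iADKO (median 3.17). In fl/fl replicate 7 it was at 38.4 CPM, 713 counts where no other mouse had more than 84. The fitted log2 fold change of -1.26 (SE 0.78, adjusted p = 0.24) takes its sign from that mouse. Without fl/fl replicate 7 it was 0.39 (adjusted p = 0.143), and DESeq2, which replaced that count as too far from its group, gave 0.34 (adjusted p = 0.156).

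The same mouse carried other secreted-factor genes at levels seen in no other. Its *Timp1*, which encodes an inhibitor of metalloproteases and is a target of TGF-β, was at 133 CPM, while the other controls ran from 4.62 to 15.5 and the iADKO mice from 7.71 to 17.4. Across genotypes *Timp1* had a log2 fold change of -0.99 (SE 0.83, adjusted p = 0.385), and 0.78 (adjusted p = 0.0591) without that mouse. DESeq2's Wald test passed it as higher (0.69, adjusted p = 0.0369). *Grem1*, which encodes the BMP antagonist gremlin 1, was at 18.8 CPM in it (348 counts), and no other mouse had more than 5 counts. Over the whole table, 4 genes with at least 100 counts in this mouse were at least 10 times their level in any other mouse: the immunoglobulin segment *Igkv1-88*, *Grem1*, *Ptprn* and *Ereg*, the gene of the growth factor epiregulin. The same count was 2 in fl/fl replicate 4, 1 each in fl/fl replicate 5 and iADKO replicate 3, and 0 in the other 9 mice. These genes were named after their values were seen. Among marker sums of neighboring tissues and cells, its lymphocyte sum was 55.5 CPM, the highest of the controls (others 28.2 to 46.8; iADKO 40.5 to 76.5). Its ovarian sum of 1.46 CPM (*Cyp11a1* and *Amh*) was also the highest of the controls, below the 1.92 CPM of iADKO replicate 6, its epithelial sum 15.4 CPM (highest 171.5) and its mesothelial sum 379 CPM (highest 907.5).

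Neither of the 2 receptor genes passed. *Tgfbr1* encodes the type I receptor ALK5, which carries the signal into the cell (chr4:47353134-47414931, plus strand). It ran from 49.4 to 95.9 CPM with a median of 63.3 in fl/fl and from 61.2 to 84.5 with a median of 80.1 in iADKO. As with *Tgfb2*, 5 iADKO mice were above 6 of the controls, fl/fl replicate 5 was above them all, and iADKO replicate 6 was among the controls. Its log2 fold change was 0.25 (SE 0.13, adjusted p = 0.16), and 0.37 (adjusted p = 0.0056) without fl/fl replicate 5.

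*Tgfbr2* encodes the type II receptor that binds TGF-β first (chr9:115913361-116004800, minus strand). In fl/fl it ran from 255 to 328 CPM, median 295, and in iADKO from 271 to 348, median 333. Although 4 iADKO mice were above every control, iADKO replicate 6 was lower than 6 of the 7. The log2 fold change was 0.14 (SE 0.075, adjusted p = 0.169), and 0.18 (adjusted p = 0.0517) without iADKO replicate 6. Within library ranges the difference in log2 CPM was 0.01 among 722 to 727 and 0.23 among 747 to 765.

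*Smad3* encodes one of the SMADs that the receptors phosphorylate (chr9:63554049-63665476, minus strand), and its level differed least between mice. It ran from 49.1 to 60.6 CPM, median 53.1, in fl/fl and from 55.6 to 61.5, median 57.2, in iADKO, where every mouse was above 6 of the 7 controls. The exception was again fl/fl replicate 5, the highest control. The log2 fold change was 0.11 (SE 0.050, adjusted p = 0.101), and without that mouse 0.15 (adjusted p = 0.0125).

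*Smad7* encodes the inhibitory SMAD that TGF-β itself induces and that blocks the receptors (chr18:75500374-75529006, plus strand). It ran from 12.9 to 20.4 CPM, median 15.3, in fl/fl and from 13.6 to 20.2, median 14.95, in iADKO. The groups covered nearly the same range, each with 1 high mouse, replicate 2. Its log2 fold change was 0.02 (SE 0.12, adjusted p = 0.908).

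*Fst* encodes follistatin, which binds activins with high affinity (chr13:114588731-114595521, minus strand). It was at 6.44, 12.6, 7.57, 6.50, 8.81, 8.44 and 14.1 CPM in fl/fl replicates 1 to 7 (median 8.44) and at 13.9, 14.8, 12.9, 9.35, 10.3 and 13.6 CPM in iADKO replicates 1 to 6 (median 13.2). All 6 iADKO mice were above 5 of the controls, and fl/fl replicates 2 and 7 were at the iADKO level. The means were 9.21 ± 3.00 and 12.5 ± 2.16 CPM, a log2 fold change of 0.44 (SE 0.19, adjusted p = 0.0927). Without fl/fl replicate 7, the mouse with the high *Inhba*, it was 0.57 (adjusted p = 0.0215).

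When fl/fl replicate 5 was left out, 5 of the 10 genes passed: *Tgfb1*, *Tgfb2*, *Tgfbr1* and *Smad3* higher and *Inhbb* lower. Leaving out fl/fl replicates 5 and 7 together, a choice made after these values were seen, let 7 pass (6 higher, 1 lower), among them *Inhba* and *Fst*. Leaving out fl/fl replicate 5 and iADKO replicate 6 together, another such choice, also let 7 pass, with *Tgfb3* (0.29, adjusted p = 0.0189) and *Tgfbr2* (0.19, adjusted p = 0.027) in place of those. Over all genes 6604, 6785 and 7192 passed in these fits in place of 5104. Removing a mouse that lies near the other genotype widens a difference by its construction, so these counts describe how much rests on 3 mice.

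Levels were compared between genes as CPM per kb of annotated exon, which allows for gene length but not for which transcripts are in use. In fl/fl the order of mean level was *Tgfbr2* (33.4 CPM per kb), *Inhbb* (22.6), *Tgfb1* (13.7), *Tgfb3* (10.7), *Tgfbr1* (9.85), *Smad3* (9.22), *Smad7* (3.28), *Tgfb2* (2.66), *Fst* (1.95) and *Inhba* (1.06). The ranges of neighbors overlapped at every step but that from *Smad3* to *Smad7*. The overlap of *Fst* with *Inhba* came from fl/fl replicate 7 alone (*Inhba* at 5.40 CPM per kb). Without that mouse the mean *Inhba* level was 0.337 CPM per kb and its highest 0.484, below the lowest *Fst* level of 1.36. In iADKO the order differed in 1 exchange: *Tgfb1*, at a level of 17.8 CPM per kb, came before *Inhbb*, at 12.4. *Inhbb* was then close to *Tgfb3* (11.8) and *Tgfbr1* (11.7), and higher than *Tgfb3* in only 3 of 6 mice. Ranges of neighbors did not overlap in iADKO between *Tgfbr2* and *Tgfb1*, *Smad3* and *Smad7*, and *Fst* and *Inhba*.

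Within single mice, the level of *Tgfb1* per kb was below that of *Inhbb* in 6 of 7 controls and above it in 6 of 6 iADKO mice. The ratio of the levels of *Tgfb1* and *Inhbb* per kb ran from 0.350 to 1.32 in fl/fl, with a median of 0.600, and from 1.04 to 1.84 in iADKO, with a median of 1.54. The only control above 1 was fl/fl replicate 5. The level of *Inhbb* per kb was above that of *Fst* in every mouse, with a median ratio of 11.7 in fl/fl (5.22 to 27.1) and 4.59 in iADKO (3.58 to 6.07). It was also above that of *Inhba* in every mouse. The median ratio was 57.8 in fl/fl (2.89 to 149) and 27.5 in iADKO (23.0 to 34.2). The 2.89 was in fl/fl replicate 7, and the next lowest control, replicate 5, was at 27.3.

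How the 10 genes varied among mice of the same genotype was described by the Pearson correlation of log2 CPM, less the genotype mean, over the 13 mice. Of the 45 pairs, 30 were above 0. The highest were *Tgfb1* with *Smad3* (r = 0.866, Spearman's ρ = 0.72) and *Tgfb2* with *Tgfbr1* (r = 0.853, ρ = 0.791), and the lowest was *Inhbb* with *Tgfbr1* (r = -0.74, ρ = -0.681). Leaving out the 2 mice farthest from the median of the first gene gave r = 0.667, 0.815 and -0.361, so the last rested largely on fl/fl replicates 4 and 5. The pairs are described because they were the extremes, and carry no test.

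Of the 13687 genes whose log2 CPM averaged 1 or more, those most like each of the 10 were found in the same way. They were picked for the highest r, so a high r follows from the choice and carries no test. The pattern of *Tgfbr1* was closest to that of *Trem4* (r = 0.983, ρ = 0.989, n = 13), *Trem6l* and *Atp8b4*, and that of *Tgfb1* to *Smap2* (r = 0.936, ρ = 0.841), *Il2rg* and *Trim28*. *Tgfb2* varied most like *Ern1* (r = 0.962, ρ = 0.923), *Galnt12* and *Gm5345*, and *Tgfb3* like *Sesn1* (r = 0.957, ρ = 0.962), *Frmd4b* and *Notch2*. For *Inhbb* the closest were *Fmr1* (r = 0.957, ρ = 0.951), *Lctl* and *Dgcr2*, all 3 of them lower in iADKO, with log2 fold changes of -0.74, -2.35 and -0.28. For *Tgfbr2* they were *B4galt1* (r = 0.938, ρ = 0.934), *Rhoj* and *Pign*, for *Smad3* *Cdc42se2* (r = 0.901, ρ = 0.72), *Poldip3* and *Tgfb1*, for *Smad7* *Adra2a* (r = 0.831, ρ = 0.72), *Srebf2* and *Csnk1g2*, and for *Fst* *Igfbp3* (r = 0.869, ρ = 0.846), *Rock1* and *Spryd3*. *Inhba* was closest to *Timp1* (r = 0.959, ρ = 0.863), *Slc39a14* and *Chl1*, and without fl/fl replicates 1 and 7 these r were 0.898, 0.687 and 0.564. Over all 10 genes, leaving out the 2 mice farthest from the median of the gene gave r from that 0.564 to 0.962 (*Tgfbr1* with *Trem4*).

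Beyond the 10 genes, a list of 73 other genes of the pathway and of its BMP branch was grouped by role. Of these, 66 had enough counts to be compared, 7 were higher and 6 lower in iADKO (19.7% of those tested, beside 30.5% over all genes), and their median log2 fold change was 0.07. The 13 that passed became 20 without fl/fl replicate 5 and 5 with the library range as a block. A single gene of the list, *Zfyve9*, had groups that did not overlap, beside 6.64% of all genes.

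**Figure D3:**
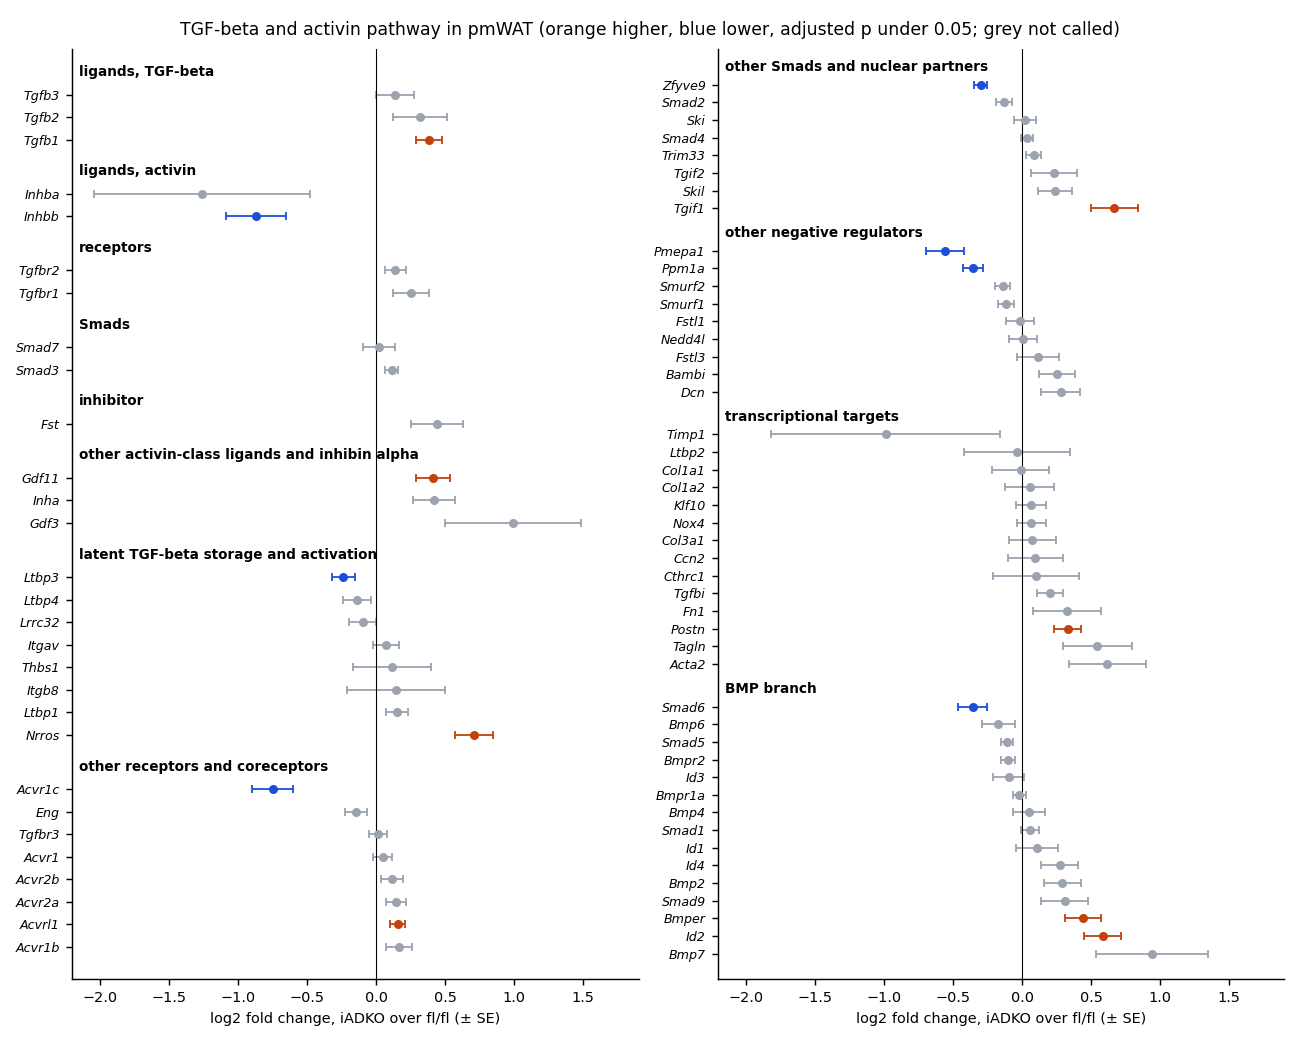
Log2 fold change of iADKO over fl/fl with its SE (n = 6 and 7 mice) for the 10 genes and 65 of the 66 other pathway genes tested, grouped by role. Orange points were higher and blue points lower at an adjusted p under 0.05, and grey points did not pass; *Inhbb* (-0.87), *Acvr1c* (-0.75) and *Pmepa1* (-0.56) lie lowest among those that passed, and *Nrros* (0.71) highest.

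Among other activin-class ligands and inhibin α, 1 of 3 tested genes passed. *Gdf11*, the gene of growth differentiation factor 11, was at 8.55 ± 1.29 CPM in fl/fl and 11.4 ± 2.04 CPM in iADKO (log2 fold change 0.41, SE 0.12, adjusted p = 0.0214). It did not pass with the replicate number (adjusted p = 0.0729) or the library range (adjusted p = 0.13) as a block, nor without iADKO replicate 2 (0.33, adjusted p = 0.0567). *Gdf3*, which encodes a ligand of ALK7 made by adipose tissue macrophages, was at 2.02 to 16.7 CPM in fl/fl and 5.70 to 17.3 CPM in iADKO. Its log2 fold change of 0.99 (SE 0.49, adjusted p = 0.142) did not pass, and the control at 16.7 CPM was fl/fl replicate 5, without which it was 1.55 (adjusted p = 0.00661). With replicates as a block, which drops fl/fl replicate 7, it was 1.53 (adjusted p = 0.0492). *Inha*, whose product turns the βA and βB subunits into inhibins, had a log2 fold change of 0.42 (SE 0.15, adjusted p = 0.0501), and passed without fl/fl replicate 5 (0.49, adjusted p = 0.0202), fl/fl replicate 6 (0.47, adjusted p = 0.0392) or iADKO replicate 3 (0.49, adjusted p = 0.0325). It also passed in DESeq2's Wald test (adjusted p = 0.044), with at least 10 counts in every library (adjusted p = 0.0427) and with replicates as a block (adjusted p = 0.0379).

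Of the other receptors and coreceptors, 1 of 8 was lower and 1 higher. *Acvr1c* encodes ALK7, the receptor found mainly in adipocytes that binds activin B. It ran from 150.7 to 245 CPM, median 195, in fl/fl and from 91.0 to 175 CPM, median 110, in iADKO, where 5 of 6 mice were below every control and replicate 6 was above fl/fl replicates 2 and 7. The log2 fold change was -0.75 (SE 0.15, adjusted p = 0.00281), near the median of the adipocyte markers, and it passed in every alternative with a smallest decrease of -0.61. *Acvrl1*, which encodes the endothelial receptor ALK1, was at 71.0 ± 3.86 and 79.1 ± 5.23 CPM (log2 fold change 0.16, SE 0.053, adjusted p = 0.0371). It did not pass in 4 of the 7 other planned analyses, where the adjusted p was up to 0.221. Nor did it pass in 6 of 13 fits with 1 mouse left out (fl/fl replicate 3 or 6, or iADKO replicate 2, 3, 4 or 5; adjusted p up to 0.0861). *Acvr1b*, which encodes the activin receptor ALK4, was at 66.0 CPM in fl/fl replicate 7, 42.2 to 53.0 in the other controls and 49.8 to 62.3 in iADKO. The difference was 0.17 in log2 (adjusted p = 0.208), and 0.25 (adjusted p = 0.0135) without that mouse. *Acvr1b* passed in 1 of the 7 other planned analyses, where the lowest adjusted p was 0.0305. Of those 7, the analysis with replicates as a block also leaves out fl/fl replicate 7. The rest did not pass, with log2 fold changes of 0.14 and 0.11 for the type II activin receptor genes *Acvr2a* and *Acvr2b*, 0.05 for *Acvr1*, 0.01 for the coreceptor gene *Tgfbr3* and -0.14 for *Eng*, the gene of endoglin. Of these, *Acvr2a* passed without iADKO replicate 4 (0.19, adjusted p = 0.0358).

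In the latent storage and activation of TGF-β, 1 of 8 genes was higher and 1 lower. *Nrros* encodes a protein that anchors latent TGF-β1 on macrophages and microglia, and was at 50.3 ± 10.4 CPM in fl/fl and 82.2 ± 14.4 CPM in iADKO. Its log2 fold change of 0.71 (SE 0.14, adjusted p = 0.00224) was near the median of the macrophage markers. The highest control, at 71.8 CPM, was fl/fl replicate 5 and the lowest iADKO mouse, at 59.8 CPM, replicate 6, the only pair by which the groups overlapped. *Ltbp3*, which encodes a latent TGF-β binding protein of the matrix, had a log2 fold change of -0.24 (SE 0.081, adjusted p = 0.0384), and did not pass with the library range as a block (-0.22, adjusted p = 0.14) or in 8 of 13 fits with 1 mouse left out (fl/fl replicate 1, 2, 3, 6 or 7, or iADKO replicate 3, 4 or 5; adjusted p up to 0.0845), while its log2 fold change was -0.29 to -0.18 over all 13. The binding protein genes *Ltbp1* and *Ltbp4*, at mean levels of 87.5 and 731 CPM in fl/fl, had log2 fold changes of 0.15 and -0.14.

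Among other SMADs and their nuclear partners, *Zfyve9* was lower and *Tgif1* higher, of 8 tested. *Zfyve9* encodes SARA, which brings SMAD2 and SMAD3 to the receptors, and every iADKO mouse (36.1 to 40.0 CPM) was below every control (43.2 to 49.8 CPM). The difference was small, a log2 fold change of -0.30 (SE 0.048, adjusted p = 7.5e-04), and passed in every alternative. *Tgif1*, the gene of a corepressor of SMAD2, was at 12.1 to 26.0 CPM in fl/fl and 22.5 to 27.7 CPM in iADKO (log2 fold change 0.67, SE 0.17, adjusted p = 0.0111). As with *Tgfb2* and *Tgfbr1*, fl/fl replicate 5 was the highest control, and with the library range as a block the log2 fold change was 0.69 (adjusted p = 0.0641). *Smad2* and *Smad4* had log2 fold changes of -0.13 and 0.04, and *Smad2* passed without fl/fl replicate 5 (-0.15, adjusted p = 0.0461) or iADKO replicate 6 (-0.16, adjusted p = 0.0362).

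Of 9 other negative regulators, 2 were lower. *Pmepa1*, a gene that TGF-β induces and whose product keeps SMADs from the receptors, was at 131 ± 20.8 CPM in fl/fl and 89.0 ± 18.95 CPM in iADKO, and 4 of 6 iADKO mice were below every control. Its log2 fold change was -0.56 (SE 0.14, adjusted p = 0.00794), with -0.57 (adjusted p = 0.0567) when the library range was a block. *Ppm1a*, which encodes a phosphatase of SMAD2 and SMAD3, was at 210 ± 16.6 and 164 ± 16.8 CPM, with a log2 fold change of -0.35 (SE 0.071, adjusted p = 0.00279). For the other 7 the log2 fold changes were -0.01 for *Fstl1*, 0.11 for the follistatin relative *Fstl3*, 0.25 for the pseudoreceptor gene *Bambi*, -0.12, -0.14 and 0.01 for the ubiquitin ligase genes *Smurf1*, *Smurf2* and *Nedd4l*, and 0.28 for *Dcn*, whose product decorin binds TGF-β. Of these, *Smurf2* (adjusted p = 0.062) passed in 4 of the 7 other planned analyses, with the lowest adjusted p in DESeq2's Wald test (-0.15, adjusted p = 0.0274), and without fl/fl replicate 5 (-0.15, adjusted p = 0.033) or replicate 7 (-0.17, adjusted p = 0.0255). Without iADKO replicate 6, *Smurf1* (-0.17, adjusted p = 0.00961) and *Dcn* (0.36, adjusted p = 0.0414) passed.

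Of 15 genes known as transcriptional targets of TGF-β, 1 passed. *Postn*, which encodes the matrix protein periostin, was at 322 ± 33.9 CPM in fl/fl and 404 ± 57.9 CPM in iADKO (log2 fold change 0.33, SE 0.095, adjusted p = 0.018), and with the library range as a block at 0.21 (adjusted p = 0.219). Of the 15, 11 had log2 fold changes above 0 (median 0.07), and the 14 other than *Postn* did not pass in edgeR. Among them, log2 fold changes were -0.01 for *Col1a1*, 0.07 for *Col3a1*, 0.33 for *Fn1* and 0.10 for *Ccn2*, with SEs of 0.17 to 0.25, and *Fn1* passed without fl/fl replicate 5 (0.58, adjusted p = 0.0152). The contractile genes *Acta2* and *Tagln* had log2 fold changes of 0.62 (SE 0.28, adjusted p = 0.105) and 0.54 (SE 0.25, adjusted p = 0.112), and with the library range as a block 0.29 and 0.17. *Acta2* passed without iADKO replicate 1 (0.75, adjusted p = 0.0469), and *Tagln* was at 0.30 (adjusted p = 0.288) without iADKO replicate 5. They stood beside 6 smooth muscle and pericyte markers, of which edgeR and limma passed 1 and DESeq2 4, with 4 at an unadjusted p under 0.05 in edgeR. *Cspg4* was lower (-0.87, adjusted p = 6.40e-04), while *Myh11* (0.99, adjusted p = 0.0586), *Cnn1* (1.29, adjusted p = 0.056) and *Des* (0.66, adjusted p = 0.069) did not pass in edgeR. The summed level was 853 ± 162 and 1045 ± 409 CPM, highest in iADKO replicates 5 (1681 CPM) and 6 (1427 CPM), with *Rgs5* the most abundant in fl/fl, and the part of these markers was not tested.

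In the BMP branch, 2 of 15 genes were higher and 1 lower. *Id2*, an immediate target of BMP signaling, was at 29.2 ± 6.84 and 43.7 ± 4.60 CPM (log2 fold change 0.58, SE 0.14, adjusted p = 0.00672), and *Bmper*, which encodes a BMP-binding protein, had a log2 fold change of 0.44 (SE 0.13, adjusted p = 0.0184), with 0.35 (adjusted p = 0.168) when the library range was a block. *Smad6*, the inhibitory SMAD gene of this branch, was at 20.1 ± 3.06 CPM in fl/fl and 15.7 ± 2.22 CPM in iADKO (log2 fold change -0.36, SE 0.10, adjusted p = 0.0201). With that block it was at -0.36 (adjusted p = 0.0668), and without iADKO replicate 4 at -0.33 (adjusted p = 0.0508). The other *Id* genes, *Id1*, *Id3* and *Id4*, did not pass, with log2 fold changes of 0.11, -0.10 and 0.27.

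The other marker lists describe the tissue in which these genes were measured. Of 7 fibroblast and progenitor markers, 0 passed in edgeR (2 at an unadjusted p under 0.05) and 0 in DESeq2 or limma, with a summed level of 1274 ± 134 CPM in fl/fl and 1441 ± 109 CPM in iADKO and *Lum* as the most abundant. Of 7 endothelial markers, 3 were lower (978 ± 94.6 and 872 ± 47.7 CPM; *Pecam1* most abundant), and of 7 mesothelial markers 0 passed in edgeR or limma and 1 in DESeq2, with 2 at an unadjusted p under 0.05 in edgeR (567 ± 158 and 665 ± 186 CPM; *Upk3b*). Lymphocyte markers were higher in 4 of 7 (37.0 ± 10.1 and 58.0 ± 13.6 CPM; *Cd79a*), epithelial markers in 2 of 4 in edgeR, 3 in DESeq2 and 0 in limma (21.6 ± 9.15 and 57.0 ± 57.8 CPM, or 34.1 ± 15.4 CPM in iADKO without replicate 6, at 171.5; *Krt8*), proliferation genes in 3 of 4 and the platelet and megakaryocyte marker *Pf4* in 1 of 3. Of 5 skeletal muscle markers, 0 passed in edgeR, DESeq2 or limma and 0 were at an unadjusted p under 0.05 in edgeR. Their summed level was 121 ± 136 CPM in fl/fl and 62.2 ± 77.6 CPM in iADKO (*Acta1* most abundant), or 81.7 ± 97.4 CPM in fl/fl without replicate 5 and 35.3 ± 45.7 CPM in iADKO without replicate 5, at 196.8. The 5 log2 fold changes ran from -1.21 to -0.69. The ovarian markers *Amh* and *Cyp11a1* were near 0, with at most 5 and 35 counts in any mouse.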

How the data were processed

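Raw counts per gene, deposited by the authors without normalization, and log2 values on DESeq2's regularized log scale, also deposited, were used for whole pmWAT of 7 fl/fl and 6 iADKO mice, 1 library each, grouped by the sample labels. The paper's methods describe strand-specific mRNA libraries read in pairs and aligned to mm39. The submitters' processing notes name FastQC 0.12.1, STAR 2.7.11a and DESeq2, and the counting tool and annotation were not given in the sources used here. Gene symbols and positions came from GENCODE vM39 (GRCm39, the same assembly), which held 33184 of the 33618 identifiers. Of 156 listed symbols, 152 had 1 identifier, and *Cyp19a1*, *Fshr*, *Gp1bb* and *Inhbe* were not analysed here.

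In R 4.3.3, genes were filtered with filterByExpr of edgeR 4.0.16 (a minimum of 10 counts scaled to the median library and 15 in total), normalized by TMM, and tested with the robust quasi-likelihood method and Benjamini-Hochberg adjustment at a threshold of 0.05. SE was the size of the log2 fold change divided by the square root of the test's F. Log2 CPM used a prior count of 2. The method was tested on simulated data. Chi-square per degree of freedom between mice of a genotype was at least 8.90 over 36 pairs, so each library was taken as a separate sample. TMM factors were 0.892 to 1.02 in fl/fl and 1.05 to 1.10 in iADKO.

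Alternatives were DESeq2's size factors, DESeq2 1.42.0's own Wald test, an analysis without the filter, and at least 10 counts in every library. Others were the replicate number or the range of library numbers as a block, limma 3.58.1 on the deposited log2 values, and each library left out. A prior count of 0.5 was also set, and no result with it is given here. Leaving out fl/fl replicate 5 together with fl/fl replicate 7 or iADKO replicate 6 was added after seeing the data. The genes and lists were chosen with earlier results of these data known. Named were the 10 genes, *Lmna*, every listed pathway gene past the threshold (up to 4 per role), the receptors and inhibitors of the TGF-β and activin branch, the 3 genes most like each of the 10, and the most abundant gene of each marker list. A gene of the pathway lists is counted but not reported here. Other genes are named as examples from the lists or as seen in the values.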

Additional observations from a re-analysis of the deposited data

Results flagged for a closer look

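In 22 groups of values (*Lmna* and the 10 pathway genes, each in fl/fl and in iADKO), a mouse was looked for whose distance from its nearest neighbor was a large part of the range of its group (Dixon's 95% critical value, 0.568 of the range for 7 mice and 0.625 for 6). Among independent groups chance gives about 1 such group in 20, and 5 were found here. The groups share mice and hold genes that vary together, so the count of 5 carries no test. Fl/fl replicate 5 accounted for 3 of them, with *Tgfb1* at 88.6 CPM (the next control was at 70.9), *Tgfb2* at 29.9 CPM (next 17.1) and *Tgfbr1* at 95.9 CPM (next 69.4, or 0.571 of the range against 0.568). Fl/fl replicate 7 had *Inhba* at 38.4 CPM, where the next control was at 3.44. Among iADKO mice, replicate 6 had the lowest *Tgfbr1*, 61.2 CPM, with the next at 76.0. Replicate 5 of fl/fl and replicate 6 of iADKO are also the mice of their groups with the highest and the lowest macrophage marker sum, and the part of this in the values was not tested.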

How the results depend on the processing

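Over all genes, 5104 passed. With the range of library numbers as a block 1986 did (784 higher, 1202 lower), and with that block 0 of the 10 genes and 5 of the 66 other pathway genes passed. The block spends degrees of freedom on 4 ranges, of which a pair holds 1 genotype only. Leaving out 1 library at a time gave 3998 to 6604 genes, 2 to 5 of the 10 and 11 to 20 of the other pathway genes, with every upper end reached without fl/fl replicate 5. Fl/fl replicates 5 and 7 left out together gave 6785 genes, 7 of the 10 and 23 others. Fl/fl replicate 5 and iADKO replicate 6 left out together gave 7192 genes, 7 of the 10 and 25 others. DESeq2's size factors gave 2176 higher and 2913 lower genes (against 2367 and 2737).

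The labels share replicate numbers between genotypes and do not say that a number marks a shared litter or day. Over 6 same-numbered pairs the residual correlations were 0.0805, 0.169, 0.00688, -0.0265, 0.217 and 0.196, with 3 over 0.1 and a mean of 0.107 beside -0.02 for other pairs, so the numbers were not taken as pairs. With the replicate number as a block, fl/fl replicate 7 left out, 4833 genes, 3 of the 10 and 16 others passed, and *Fst* was added to the 10 (0.59, adjusted p = 0.0114).

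*Tgfb1* and *Inhbb* passed in 6 of 7 other planned analyses and with each of the 13 libraries left out. For *Tgfb1* the adjusted p was 7.14e-04 to 0.0253 with 1 library left out and 0.00244 to 0.0788 in the other planned analyses, and for *Inhbb* 0.00215 to 0.0243 and 2.31e-04 to 0.053. *Inhba* changed sign with DESeq2's Wald test (0.34), the replicate block (0.42), the library range (0.34), without fl/fl replicate 7 (0.39; lowest with 1 library left out -1.44) and without fl/fl replicates 5 and 7 (0.53). *Timp1* (-0.99) also did, with 0.86 under the replicate block, 0.69 under the range block, 0.08 in limma and 1.14 without fl/fl replicates 5 and 7. Log2 fold changes near 0 also crossed it. *Smad7* ranged from -0.060 to 0.098 with 1 library left out and was -0.029 without fl/fl replicate 5 and iADKO replicate 6. *Tgfbr3* was -0.0016 with DESeq2's size factors, -0.0015 in its Wald test, -0.016 with the replicate block, -0.0022 with the range block, -0.021 to 0.048 with 1 library left out, and -0.056 and -0.022 in the pair of added fits. *Nedd4l* was -0.0078, -0.0078, -0.0060 (no filter) and -0.0082 (replicate block), -0.038 to 0.074 with 1 library left out, and -0.086 and -0.088. *Fstl1* was 0.0036 with the replicate block, -0.097 to 0.030 with 1 library left out, and 0.066 and 0.045, and *Fstl3* was -0.0036 without fl/fl replicates 5 and 7. *Col1a1* was 0.058 with the replicate block, up to 0.12 with 1 library left out, and 0.20 and 0.18, *Col3a1* was -0.0012 with the range block and -0.0059 without iADKO replicate 3, *Id3* was 0.083 with the range block, and *Id1* was -0.061 without iADKO replicate 6 and -0.12 without fl/fl replicate 5 as well. The cause was not tested.

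*Inhba* had at most 84 counts outside fl/fl replicate 7 (713 counts), and *Fst* at most 318 in any mouse. With 7 and 6 mice and such counts, a difference that did not pass is not shown to be absent.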
